A study of Mus musculus with 14 samples.

Results

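Receptors by which macrophages sense chemokines and other chemoattractants were followed in primary bone marrow-derived macrophages (pBMDMs) that had been exposed to the culture supernatant of dying or living fibroblasts. The 9 genes, Cx3cr1, Ccr1, Ccr2, Cxcr4, Ccrl2, Cmklr1, C5ar1, Fpr1 and Fpr2, were picked by name from the 55414 genes of the count table. All 9 were among the 12851 genes that passed the filter on low counts. The supernatants came from Pfa1 MEFs, a mouse embryonic fibroblast line in which 4-hydroxytamoxifen deletes the gene for glutathione peroxidase 4 (GPX4), so that the cells die by ferroptosis, an iron-dependent necrosis with peroxidation of membrane lipids. The pBMDMs themselves were wildtype cells from the bone marrow of young C57BL/6N mice, differentiated with M-CSF in all groups. They were kept for 24 h in supernatant of untreated Pfa1 MEFs (ctrl, 3 samples), of MEFs given 4-hydroxytamoxifen (Tam, 3 samples), of MEFs given 4-hydroxytamoxifen and the ferroptosis inhibitor Ferrostatin-1 (Tam Fer1, 3 samples), of MEFs given Ferrostatin-1 alone (Fer1, 3 samples), or in fresh medium that had seen no MEFs (medium ctrl, 2 samples). All supernatants stem from a single MEF line, and any drug left in them also reached the macrophages.

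Chemoattractant receptors span the membrane as bundles of helices and signal through inhibitory G proteins, which steer a cell up a gradient of ligand. Chemokine receptors bind small secreted chemokines, whereas C5ar1 binds the complement fragment C5a, the formyl peptide receptors bind peptides from bacteria and mitochondria, and Cmklr1 binds chemerin. Ccrl2 is an atypical member that binds chemerin without signalling and presents it to neighbouring cells. In bone marrow-derived cells Ccr2 marks inflammatory monocytes, Cx3cr1 marks patrolling monocytes and many resident macrophages, and Fpr1 and Fpr2 are abundant in neutrophils and inducible in macrophages.

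Total counts per sample lay between 7823051 and 11052352. In such libraries 3 counts, the amount taken here as the smallest that can be told from none, correspond to 0.272 to 0.381 CPM, the usual depth-scaled count, here with TMM factors. The lowest value of any of the 9 receptors was 1.06 CPM. All 9 macrophage markers checked (Adgre1, Itgam, Csf1r, Cd68, Fcgr1, Mertk, Lyz2, Cd14 and Spi1) were above that floor in every group. Their sum was 19180 to 28085 CPM in ctrl, 28417 to 44230 CPM in Tam and 27917 to 34833 CPM in medium ctrl. It was 22708 to 29223 CPM in Tam Fer1 and 21821 to 28107 CPM in Fer1. Lyz2 alone had a mean of 18494 CPM in ctrl and 26331 CPM in Tam. The 6 lymphocyte markers and the 3 markers of mast cells or basophils did not pass the filter. Summed levels per sample were 2.82 to 22.3 CPM for 7 dendritic cell markers and 15.1 to 116 CPM for 8 fibroblast markers. Samples with the same replicate number deviated from their group means together in most cases, and the number was taken as the mouse, as a term of the model. The study describes its 3 replicates as biological and independent, but no sample label names the mouse or the MEF culture. The p-values measure only the spread between these samples. Tam replicate 3 had the lowest Cx3cr1, Ccr2, Cxcr4 and Ccrl2 of all 14 samples and ctrl replicate 3 the highest Ccr1, so results that rest on them are also given without them.

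Fpr1 and Fpr2 are neighbours in the genome. In the GRCm38 annotation Fpr1 (ENSMUSG00000045551) lies on chromosome 17 from 17876471 to 17883940 on the minus strand and Fpr2 (ENSMUSG00000052270) from 17887824 to 17893952 on the plus strand, 3883 bases apart, facing away from each other with 0 annotated genes between. The 250 bases before each RefSeq start are shown because these genes varied together over the samples. The sequences are those of RefSeq for GRCm38.p6, written 5′ to 3′ along the gene, at chr17:17883940-17884189 on the minus strand for Fpr1 and chr17:17887574-17887823 on the plus strand for Fpr2. The Fpr1 window takes in the first base of the annotated gene, since its RefSeq start lies within the GRCm38 gene model. Capitals mark matches to 5 motifs searched on both strands.

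Fpr1: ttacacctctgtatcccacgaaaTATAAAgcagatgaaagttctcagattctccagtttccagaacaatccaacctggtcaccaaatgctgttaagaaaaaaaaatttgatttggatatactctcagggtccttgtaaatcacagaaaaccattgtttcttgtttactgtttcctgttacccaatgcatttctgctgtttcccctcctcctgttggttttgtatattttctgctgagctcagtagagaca

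Fpr2: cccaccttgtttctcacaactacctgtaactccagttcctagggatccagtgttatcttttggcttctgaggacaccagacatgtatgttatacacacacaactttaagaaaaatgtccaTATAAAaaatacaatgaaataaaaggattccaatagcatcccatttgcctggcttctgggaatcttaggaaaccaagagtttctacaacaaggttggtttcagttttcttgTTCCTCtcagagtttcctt

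The motifs were GAGGAA, a core letter string of PU.1 sites, TGANTCA for AP-1, TTGCNNAA for C/EBP, GAAANNGAA for interferon response elements and TATAAA for TATA boxes. TATAAA began 227 bases before the start of Fpr1 and 130 bases before that of Fpr2. GAGGAA was found in the Fpr2 window, read on the opposite strand from 19 bases before the start, and no matches overlapped. TATAAA occurs in 12.4% and GAGGAA in 23.3% of the 32817 windows of this length in the table, so either match is a common one. TGANTCA (6.75% of windows), TTGCNNAA (9.57%) and GAAANNGAA (7.12%) had no match in either window.

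Cx3cr1 was lower and Fpr1 higher in pBMDMs kept in ferroptotic supernatant than in those kept in supernatant of untreated MEFs. Cx3cr1, the receptor for the membrane-bound chemokine fractalkine, fell 3.57-fold and Fpr1, a high-affinity receptor for formylated peptides, rose 3.75-fold. A change counted as called where the log2 fold change exceeded 1 in size and the adjusted p was below 0.05, the adjusted p being that of edgeR's quasi-likelihood test after Benjamini-Hochberg adjustment over all genes tested. Of all genes, 0.763% were called lower and 0.35% higher in Tam than in ctrl, against 1 receptor of 9 in each direction. The median log2 fold change of the 9 receptors was -0.07, next to 0.01 over all genes tested.

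**Figure D1:**
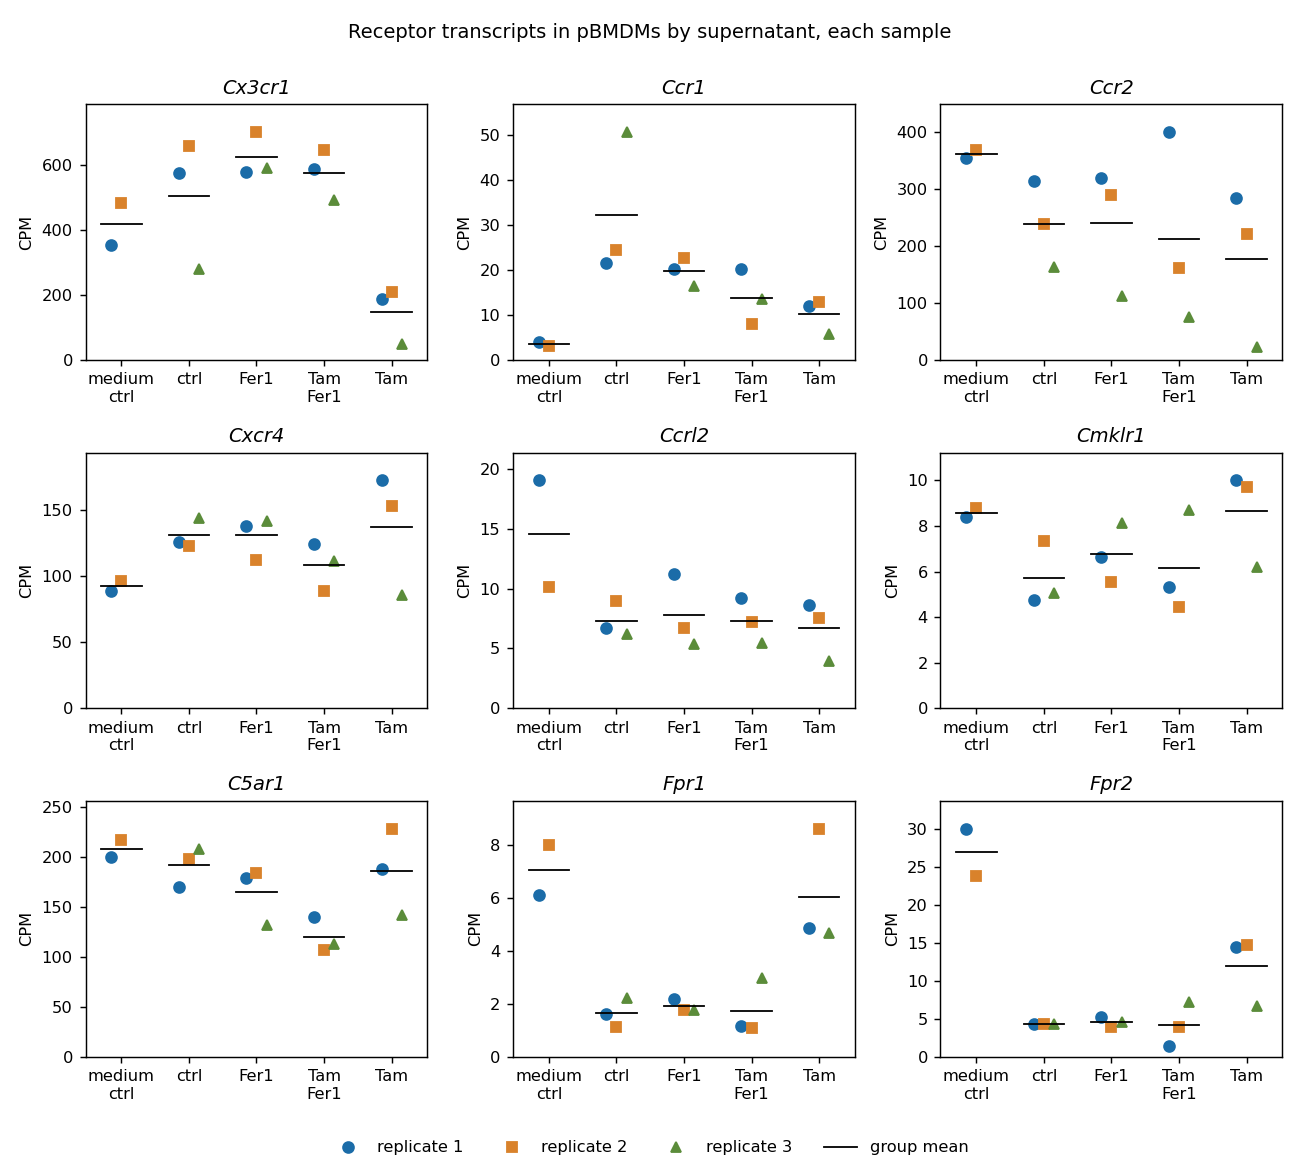
Level of each receptor in CPM (linear axes from 0) in the 14 pBMDM samples, by the supernatant the cells were kept in. Symbols give the replicate number and black lines the group means (n = 3, and n = 2 for medium ctrl); Cx3cr1 was between 48.8 and 207 CPM in Tam and at or above 278 CPM in every other sample.

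Cx3cr1 was measured at 574, 657 and 278 CPM in ctrl replicates 1, 2 and 3. In Tam it was at 186, 207 and 48.8 CPM, so that the highest Tam sample was below the lowest ctrl sample. The log2 fold change was -1.84 ± 0.31 (SE, n = 3 against 3; edgeR adjusted p = 0.0157). Within replicate numbers the log2 difference was -1.62, -1.66 and -2.50, lower in 3 of 3. Leaving out Tam replicate 3, the lowest sample, gave -1.46 (edgeR adjusted p = 0.0110). The fit without the replicate block gave -1.77, and the adjusted p of the same edgeR test was then 0.162, so the call was lost without the pairing. It was also lost when only the ctrl and Tam samples were fitted with the block (-1.92, edgeR adjusted p = 0.142). That fit called 0 of the 11857 genes it tested. Taking replicate number 1 or 2 out of all groups kept the log2 fold change at -1.99 and -1.95, with edgeR adjusted p-values of 0.234 and 0.363. In the annotation the Cx3cr1 model spans 168264 bases of chromosome 9 (119901616 to 120069879, minus strand) and overlaps Gorasp1, Csrnp1 and Xirp1 on the same strand, so reads within shared bases could be split between them.

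The formyl peptide receptors were measured at higher levels in Tam. Fpr1 was at 1.62, 1.11 and 2.21 CPM in ctrl and at 4.85, 8.61 and 4.68 CPM in Tam, without overlap. The log2 fold change was 1.91 ± 0.42 (SE, n = 3 against 3; edgeR adjusted p = 0.0462), close to the threshold. Without the replicate block it was 1.88 with an adjusted p of 0.131 by the same edgeR test, and without ctrl replicate 3 it was 2.08 with 0.0618, neither of which passes. With only the ctrl and Tam samples in the fit, which called no gene at all, it was 1.85 (edgeR adjusted p = 0.361). Without replicate number 1 or 2 it was 2.08 and 1.34, with edgeR adjusted p-values of 0.405 and 0.816. Fpr2, whose ligands include peptides, serum amyloid A and annexin A1, was at 4.36, 4.32 and 4.31 CPM in ctrl and at 14.4, 14.8 and 6.71 CPM in Tam. Its groups did not overlap either, but the log2 fold change of 1.48 ± 0.44 (SE, n = 3 against 3) did not pass the test (edgeR adjusted p = 0.158). Tam replicate 3 held the lowest of the 3 Tam values, and without it the log2 fold change was 1.91 (edgeR adjusted p = 0.0372).

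Ccr1, a receptor for Ccl3, Ccl5 and related chemokines, had values of 21.6, 24.3 and 50.7 CPM in ctrl and of 11.9, 12.8 and 5.69 CPM in Tam. The groups did not overlap, yet the log2 fold change of -1.65 ± 0.42 (SE, n = 3 against 3) missed the threshold (edgeR adjusted p = 0.0830). It was -1.06 without ctrl replicate 3 (edgeR adjusted p = 0.166) and -1.23 without Tam replicate 3 (edgeR adjusted p = 0.204). In all, Cx3cr1 and Ccr1 lay wholly below ctrl and Fpr1 and Fpr2 wholly above it, where 5.84% and 5.2% of all genes tested did so. With 3 samples against 3, the exact permutation test on a single gene cannot give a two-sided p below 0.10.

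Ccr2, the receptor for Ccl2 that brings monocytes out of the marrow, had values of 314, 239 and 164 CPM in ctrl and of 285, 221 and 23.0 CPM in Tam. Replicates 1 and 2 differed little between the groups (log2 differences of -0.14 and -0.11) and replicate 3 differed by -2.82. The fitted log2 fold change of -0.90 ± 0.43 (SE, n = 3 against 3; edgeR adjusted p = 0.490) thus came mainly from replicate 3, and it was -0.34 without Tam replicate 3. The 6 monocyte markers checked summed to 39.8 to 60.0 CPM in ctrl and to 22.3 to 117 CPM in Tam. Of the 5 markers tested, 0 were called between Tam and ctrl by edgeR or DESeq2. One with an unadjusted p under 0.05 was among these 5 markers, next to 1394 of all 12851 genes. Their part in the Ccr2 and Cx3cr1 values was not tested. The remaining receptors had overlapping groups and did not pass the test. Cmklr1 had a log2 fold change of 0.60 ± 0.31 (SE, edgeR adjusted p = 0.532), with higher values in Tam in 3 of 3 replicate numbers. Those of Ccrl2, C5ar1 and Cxcr4, the receptor for Cxcl12, were -0.18, -0.07 and 0.05.

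**Figure D2:**
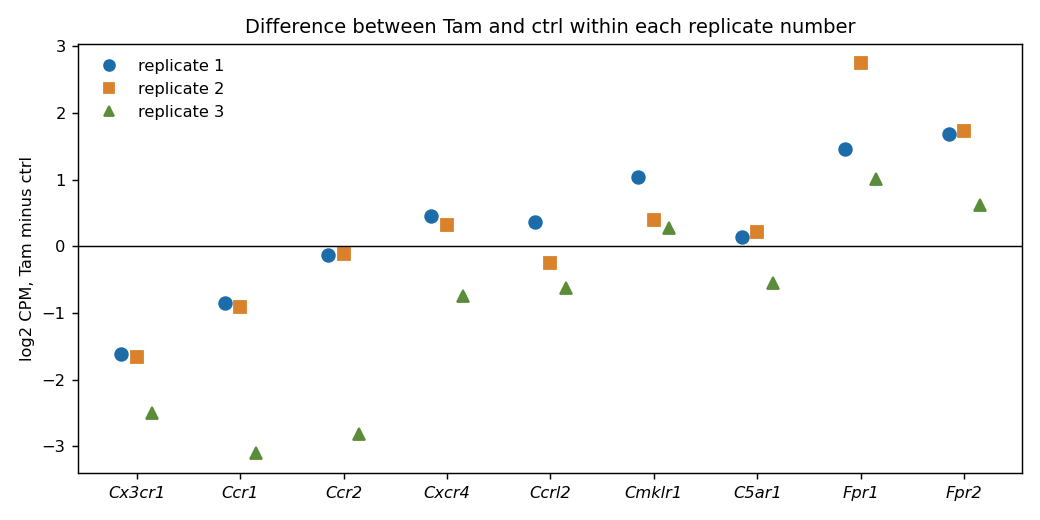
Difference of log2 CPM (prior count 2) between Tam and ctrl for each receptor, within each replicate number (symbols). Cx3cr1 and Ccr1 were below 0 and Fpr1 and Fpr2 above 0 in 3 of 3 replicate numbers, while Ccr2 reached -2.82 in replicate 3 and stayed near 0 in the others.

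The Tam Fer1 group asks which differences remain when the MEFs are exposed to 4-hydroxytamoxifen but kept alive by Ferrostatin-1. Against it, Cx3cr1 was lower in Tam by the same test, 4.36-fold, and no receptor passed in the upward direction; 0.731% of all genes were called lower and 0.296% higher. Cx3cr1 was at 586, 646 and 490 CPM in Tam Fer1, in each replicate number above Tam. The log2 fold change was -2.12 ± 0.32 (SE, n = 3 against 3; edgeR adjusted p = 0.0122), and -1.71 without Tam replicate 3 (edgeR adjusted p = 0.00556). Without the replicate block it was -1.96, and the adjusted p of 0.0938 from edgeR no longer passed. Without replicate number 1 or 2 it was -2.39 and -2.40, with edgeR adjusted p-values of 0.279 and 0.286.

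Fpr1 was at 1.15, 1.06 and 2.97 CPM in Tam Fer1, below all Tam samples. Its log2 fold change of 1.86 ± 0.42 (SE, n = 3 against 3) stood just outside the threshold (edgeR adjusted p = 0.0563). Without Tam replicate 3 it was 2.24 (edgeR adjusted p = 0.0199) and without ctrl replicate 3, a sample outside the contrast that enters the shared spread, it was 1.83 (edgeR adjusted p = 0.0406). Fpr2 was at 1.46, 3.93 and 7.17 CPM in Tam Fer1 and overlapped with Tam through replicate 3. Its log2 fold change was 1.55 ± 0.45 (SE, edgeR adjusted p = 0.155), and 2.04 without Tam replicate 3 (edgeR adjusted p = 0.0270).

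C5ar1, the receptor through which C5a draws in phagocytes, was at 188, 228 and 142 CPM in Tam and at 140, 107 and 113 CPM in Tam Fer1. The groups did not overlap, with a log2 fold change of 0.62 ± 0.18 (SE, n = 3 against 3; edgeR adjusted p = 0.155). Cx3cr1 was thus the receptor wholly below Tam Fer1 (5.8% of all genes were) and C5ar1 and Fpr1 were wholly above it (4.4% of all genes were). Ccr1 was at 20.1, 7.97 and 13.4 CPM in Tam Fer1 and overlapped with Tam. Its log2 fold change between Tam and Tam Fer1 was -0.40 ± 0.41 (SE, edgeR adjusted p = 0.797). Both comparisons use the same Tam samples, so they are not independent of each other.

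**Figure D3:**
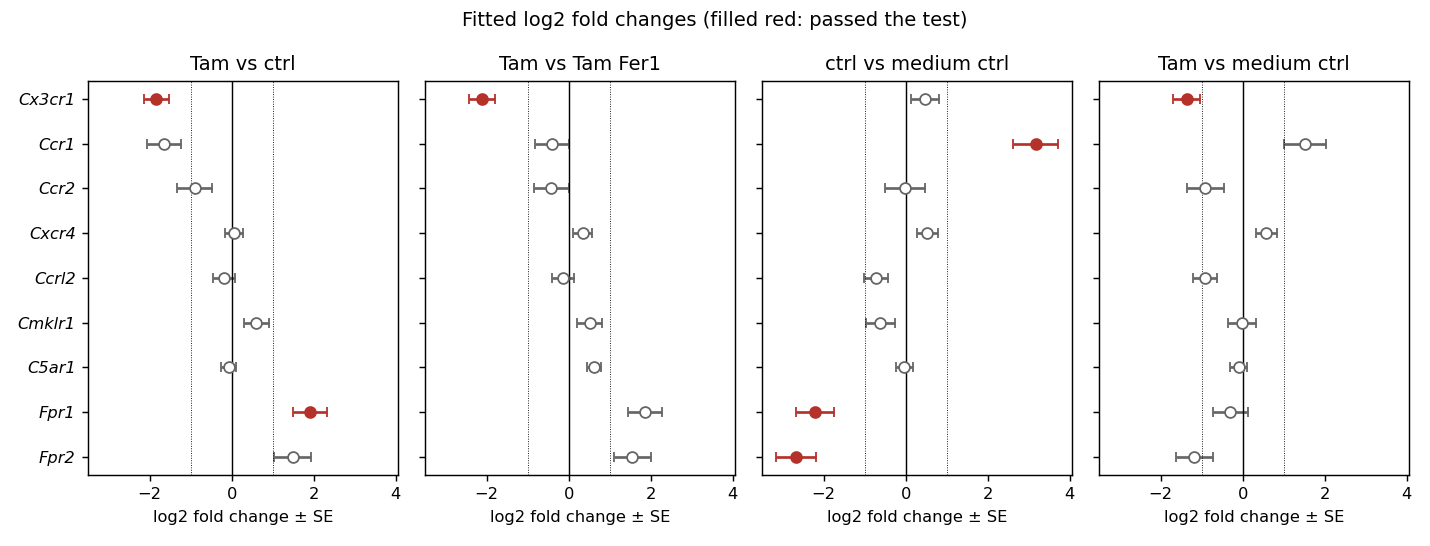
Fitted log2 fold changes of the 9 receptors with their standard errors (horizontal bars) in 4 comparisons; dotted lines mark -1 and 1, and filled red points passed the test. Cx3cr1 passed in the 3 comparisons that involve Tam, at -1.84, -2.12 and -1.37, and Ccr1, Fpr1 and Fpr2 passed between ctrl and medium ctrl, at 3.17, -2.21 and -2.67.

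Whether the Tam effect itself differed without and with Ferrostatin-1 was tested as the difference between Tam against ctrl and Tam Fer1 against Fer1. No receptor passed by edgeR, and 0.0311% of all genes did. The difference of log2 fold changes was -1.70 ± 0.43 (SE) for Cx3cr1 (edgeR adjusted p = 0.286), 2.10 ± 0.61 for Fpr1 (edgeR adjusted p = 0.416), 1.63 ± 0.64 for Fpr2 (edgeR adjusted p = 0.732) and -1.10 ± 0.58 for Ccr1 (edgeR adjusted p = 0.903). Among the 9 receptors the unadjusted p was under 0.05 for 3, as it was for 797 of the 12851 genes tested. DESeq2 called 79 of all genes, Cx3cr1 among them (DESeq2 adjusted p = 0.0303).

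Comparisons among the supernatants of living MEFs gave no called receptor by edgeR or DESeq2. Between Tam Fer1 and Fer1, which differ in 4-hydroxytamoxifen and GPX4 loss without death, all 9 log2 fold changes were negative and lay between -0.55 for Ccr1 and -0.07 for Ccrl2, with edgeR adjusted p-values of 1.00; 0.0233% of all genes were called, and 266 genes, 1 receptor among them, had an unadjusted p under 0.05. Between Tam Fer1 and ctrl 0.0311% of all genes were called. There Ccr1 had a log2 fold change of -1.25 ± 0.40 (SE) and C5ar1 of -0.69 ± 0.18 (SE), both with an edgeR adjusted p of 0.948 (2 receptors had an unadjusted p under 0.05, as did 554 of all 12851 genes), and Ccr1 was -0.60 without ctrl replicate 3. Ferrostatin-1 alone, in Fer1 against ctrl, gave log2 fold changes from -0.70 for Ccr1 to 0.43 for Cx3cr1. In that comparison 0% of all genes were called by edgeR and 146 had an unadjusted p under 0.05, none of them a receptor, and DESeq2 called 1 gene and no receptor.

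Supernatant of untreated MEFs was also compared with fresh medium that had seen no MEFs. Ccr1 was higher in ctrl than in medium ctrl, by 3.17 on the log2 scale, and Fpr1 and Fpr2 were 4.63-fold and 6.35-fold lower. Of all genes, 4.1% were called higher and 3.69% lower in ctrl, against 1 and 2 of the 9 receptors. Ccr1 was at 4.06 and 3.11 CPM in medium ctrl, under every sample kept in a supernatant (5.69 CPM or more). The log2 fold change was 3.17 ± 0.55 (SE, n = 3 against 2; edgeR adjusted p = 0.00260), and 2.69 without ctrl replicate 3 (edgeR adjusted p = 8.34e-04). Taking out replicate number 1 or 2 leaves a single medium ctrl sample, and then none of the 3 calls held, with edgeR adjusted p-values of 0.0649 and 0.0954 for Ccr1.

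Fpr2 was at 30.1 and 23.8 CPM in medium ctrl, above all other samples, with a log2 fold change of -2.67 ± 0.49 (SE, n = 3 against 2; edgeR adjusted p = 0.00367). Fpr1 was at 6.10 and 8.01 CPM, within the range of Tam, with a log2 fold change of -2.21 ± 0.46 (SE, n = 3 against 2; edgeR adjusted p = 0.00916). The summed level of the 11 neutrophil markers checked was also highest in medium ctrl. It was 107 to 110 CPM in medium ctrl, 33.8 to 46.3 CPM in ctrl and 22.7 to 78.5 CPM in Tam, 25.9 to 31.9 CPM in Tam Fer1 and 30.6 to 34.9 CPM in Fer1. Of the 5 neutrophil markers tested, S100a8 and Ngp were called lower in ctrl than in medium ctrl by edgeR, and these, S100a9 and Csf3r by DESeq2. All 5 had an unadjusted p under 0.05, as did 3082 of all 12851 genes. Between Tam and ctrl 0 of the 5 were called by edgeR or DESeq2, and 1 had an unadjusted p under 0.05, next to 1394 of all genes. All 5 had positive log2 fold changes there, with a median of 0.69. The markers Ly6g and Elane were at 0 in all 14 samples. Csf3r had the highest level on the list and made up a large part of these sums. Its group mean was 60.3 CPM in medium ctrl, 25.7 CPM in ctrl and 34.7 CPM in Tam. In bulk RNA a change in the share of a cell type and a change in the RNA per cell cannot be told apart, and the part of these markers in the Fpr1 and Fpr2 values was not tested. The fibroblast marker Col1a1 was called lower in Tam than in Tam Fer1 (log2 fold change -1.14, edgeR adjusted p = 0.0456). Col1a1 and Col1a2 were called lower in ctrl and in Tam than in medium ctrl, and Fcgr1 lower in Tam than in medium ctrl. None of these edgeR calls held without the replicate block. DESeq2 also called Csf1r and Itgax between ctrl and medium ctrl, and F13a1 between Tam and Tam Fer1. Of the 9 macrophage markers, 0 were called between Tam and ctrl by edgeR or DESeq2. There 4 were higher in Tam with an unadjusted p under 0.05, as 1394 of all 12851 genes had in either direction. Between ctrl and medium ctrl 5 were lower in ctrl with an unadjusted p under 0.05, next to 3082 of all genes in either direction. The part of all these markers in the receptor values was not tested.

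The other 6 receptors did not pass between ctrl and medium ctrl. Ccr2 was at 354 and 368 CPM in medium ctrl, above every ctrl sample, but its fitted log2 fold change was -0.01 ± 0.49 (SE) and became 0.11 with library totals in place of TMM. Within replicates 1 and 2 the log2 difference was -0.18 and -0.62, and without ctrl replicate 3, which has no medium ctrl partner, the fitted value was -0.42. Ccrl2 was at 19.0 and 10.1 CPM in medium ctrl and at 6.69, 8.95 and 6.18 CPM in ctrl (log2 fold change -0.73 ± 0.29 SE, edgeR adjusted p = 0.148). The log2 fold changes were -0.62 for Cmklr1, 0.52 for Cxcr4, 0.47 for Cx3cr1 and -0.03 for C5ar1. In all, Ccr1 and Cxcr4 lay wholly above medium ctrl, where 17.4% of all genes did, and Ccr2, Ccrl2, Cmklr1, Fpr1 and Fpr2 wholly below, where 17.1% did.

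Against fresh medium, Tam differed in Cx3cr1. Its level of 353 and 481 CPM in medium ctrl was above all Tam samples, and the log2 fold change was -1.37 ± 0.34 (SE, n = 3 against 2; edgeR adjusted p = 0.0411), with 1.64% of all genes called lower and 1.42% higher. Without the replicate block it was -1.50 and did not pass (adjusted p = 0.177 by edgeR). Nor did it pass with library totals in place of TMM (-1.28, edgeR adjusted p = 0.0546), or without replicate number 1 (-1.66, edgeR adjusted p = 0.376) or 2 (-1.36, edgeR adjusted p = 0.562). Fpr1 had a log2 fold change of -0.30 ± 0.42 (SE, edgeR adjusted p = 0.839), Fpr2 of -1.18 ± 0.45 (SE, edgeR adjusted p = 0.209) and Ccr1 of 1.52 ± 0.52 (SE, edgeR adjusted p = 0.147). By group mean, Cx3cr1 thus ran from 147 CPM ± 86.1 in Tam over 417 CPM ± 90.7 in medium ctrl, 503 CPM ± 199 in ctrl and 574 CPM ± 78.6 in Tam Fer1 to 622 CPM ± 68.5 in Fer1 (SD, n = 3, n = 2 for medium ctrl), and the 3 groups kept in supernatant of living MEFs overlapped with each other. Fpr2 ran from 4.19 CPM ± 2.86 in Tam Fer1, 4.33 CPM ± 0.025 in ctrl and 4.58 CPM ± 0.70 in Fer1, which overlapped, over 12.0 CPM ± 4.56 in Tam to 27.0 CPM ± 4.45 in medium ctrl (SD, same n).

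The receptors differed in what their variance over the 14 samples followed. The supernatant group accounted for 85.8% of the variance of log2 CPM for Fpr1, 79.5% for Ccr1, 78.7% for Fpr2 and 73.9% for Cx3cr1. This term covers 5 groups, among them medium ctrl, which held the lowest Ccr1 and the highest Fpr2 values. A term for so many groups takes up part of the variance in any gene, and the share over all genes was not computed. For Ccr2 and Ccrl2 the replicate number accounted for more, 67.3% and 55.4%, and the group for 13.5% and 26.4%. Ccr2 was highest in replicate 1 and lowest in replicate 3 in each of the 4 supernatant groups, at 401 and 74.7 CPM for instance in Tam Fer1. For Cxcr4 and Cmklr1 the largest share, 53.7% and 56.5%, followed neither, and their highest and lowest samples differed by 2.01-fold and 2.24-fold. The range was widest for Fpr2, at 20.6-fold.

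**Figure D4:**
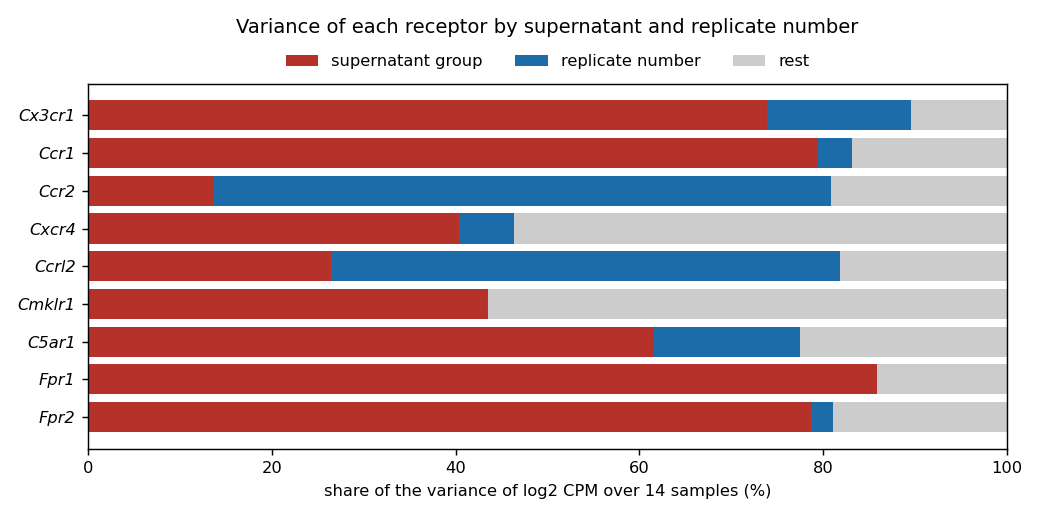
Share of the variance of log2 CPM over the 14 samples (horizontal axis, percent) that followed the replicate number (blue, taken out first), the supernatant group (red) or neither (grey), for each receptor. The replicate number took 67.3% for Ccr2 and 55.4% for Ccrl2, and the group 73.9% or more for Cx3cr1, Ccr1, Fpr1 and Fpr2.

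Fpr1 and Fpr2 had the closest patterns of any pair of these receptors, with a Pearson correlation of log2 CPM of 0.89 over 14 samples, and 0.90 after the replicate number was taken out. Ccr2 and Ccrl2 correlated at 0.77, which fell to 0.44 without the replicate number. Ccr1 and Fpr2 ran in opposite directions (-0.69). Among other genes, the pattern of Fpr1 was closest to those of Nr4a2, Thbs1 and Cytip (0.93, 0.92 and 0.92) and that of Fpr2 to Tifa, Nr4a2 and Stau1 (0.95, 0.94 and 0.94), so that Nr4a2, an immediate early transcription factor, was near both. Cx3cr1 was closest to F11r, Spn and Chn2 (0.94, 0.93 and 0.92), Ccr1 to Zfp938, Hdgf and Ska3 (0.95, 0.94 and 0.94) and Ccr2 to Dck, Ifi206 and Dpysl2 (0.97, 0.96 and 0.96). Cxcr4 was closest to Socs3, Tfec and Rab31, Ccrl2 to Psme2, H2-Q7 and Max, Cmklr1 to Eif4ebp2, Cdk9 and Dpf2, and C5ar1 to Rab8b, Polr2h and Il10rb, at 0.84 to 0.94. These correlations are descriptions over samples that share groups and replicate numbers, and each gene was picked as the closest of 11111.

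Of 34 other chemoattractant receptors, 11 passed the filter on low counts. None was called between Tam and ctrl by edgeR or DESeq2, where 3 had an unadjusted p under 0.05, as did 1394 of all 12851 genes tested, and the median log2 fold change was -0.03. S1pr1, which guides cells towards sphingosine 1-phosphate, was called higher in ctrl than in medium ctrl (log2 fold change 1.43 ± 0.35 SE, edgeR adjusted p = 0.0192), as were 4.1% of all genes. C3ar1, the receptor for complement C3a, had a mean of 1259 CPM ± 308 in ctrl and 2341 CPM ± 199 in medium ctrl (SD, n = 3 and 2), with a log2 fold change of -0.81 that was short of the fold threshold (edgeR adjusted p = 0.00395). Fpr3, which overlaps Fpr2 on the same strand, was at 0 in all samples, as were Fpr-rs3, Fpr-rs4, Fpr-rs6 and Fpr-rs7, although near-identical members of this family can lose reads to each other in counting.

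Of 19 ligands of the receptors, 15 were tested and none was called between Tam and ctrl by edgeR or DESeq2. Of the 15, 3 had an unadjusted p under 0.05, as did 1394 of all 12851 genes. The Ccr2 ligands Ccl2 and Ccl7 had log2 fold changes of -1.25 ± 0.54 (SE, edgeR adjusted p = 0.419) and -1.36 ± 0.47 (SE, edgeR adjusted p = 0.266) there. Between ctrl and medium ctrl, Ccl2, Ccl7 and Ccl8 were called higher (log2 fold changes 2.56 ± 0.65, 2.82 ± 0.60 and 4.80 ± 0.79 SE) and Ccl5, a ligand of Ccr1, lower (-1.75 ± 0.33 SE). Of all genes, 4.1% were called higher and 3.69% lower in that comparison. Ccl8 was at no more than 0.334 CPM in medium ctrl, at the floor of 3 counts, so its fold change there is not well determined. Chemerin (Rarres2) reached at most 0.253 CPM in any sample, under the floor, and Cx3cl1 had group means of 1.15 to 2.41 CPM.

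Of 29 genes of receptor signalling and desensitisation, 28 were tested. None was called between Tam and ctrl by edgeR or DESeq2, and 3 had an unadjusted p under 0.05, as did 1394 of all 12851 genes. The median log2 fold change of the 28 was 0.17 there, next to 0.01 over all genes. Between ctrl and medium ctrl, Pik3cg, the catalytic subunit of the phosphoinositide 3-kinase downstream of these receptors, was called higher (log2 fold change 1.23 ± 0.29 SE, edgeR adjusted p = 0.0177). Grk3, a kinase that shuts off activated receptors, was called lower (-1.91 ± 0.34 SE, edgeR adjusted p = 0.00344), as was Rgs1, which turns off the G protein (-1.23 ± 0.35 SE, edgeR adjusted p = 0.0436). Of all genes, 4.1% were called higher and 3.69% lower in ctrl. Against the same medium, 0 of the 28 were called in Tam by edgeR and 1, Grk3, by DESeq2, which called 534 of all genes. Of the 28, 4 had an unadjusted p under 0.05, as did 2026 of all 12851 genes.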

How the data were processed

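Libraries of 14 pBMDM samples were primed at the 3′ end of transcripts. According to the labels and methods, the authors aligned reads with STAR 2.7.10a and quantified genes with Salmon 1.5.2, and deposited expected counts per gene, without normalization. Their methods name a release of GRCh38, the human genome, and the processing notes also GRCm38, while the identifiers are mouse; a mouse annotation release is not given in the sources used here. A deposited table of the authors' DESeq2 comparisons (fold changes, p-values) and its 14 columns of per-sample values were not used.

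Expected counts were rounded (30109 values were not whole; the plan spoke of counts) and tested with edgeR 4.0.16 under R 4.3.3 (quasi-likelihood test, TMM scaling, filterByExpr with a minimum count of 10, Benjamini-Hochberg adjustment over 12851 genes). All 14 samples entered 1 model of group and replicate number, since the study had mouse ID in its design; that the number is the mouse was assumed. Over 26 pairs of samples with the same number the median correlation of deviations was 0.25, next to -0.14 over 52 other pairs. Deviations from a group mean sum to 0 within the group, so the second value follows largely from the first. Standard errors were derived from each F statistic. No 2 replicates agreed within sampling noise. Alternatives were DESeq2 1.42.0, other scalings and filters, no block, fewer groups and left-out samples. The model was also run on simulated counts made with the same replicate effect in every group. Such a run checks the code and cannot show whether the block suits these data. Coordinates are GENCODE's and promoters RefSeq's for GRCm38. All 9 receptors, and for each the 3 genes with the closest pattern (without predicted genes), are named; of each other gene list, called genes and up to 4 others. Values of some genes are left out of the text. The receptors and lists were chosen with earlier results of these data known. Floors cover counting error only.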

Additional observations from a re-analysis of the deposited data

How the results depend on the processing

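In Tam against ctrl, 2 receptors were called. DESeq2 called 4, as did edgeR with no filter on low counts (Cx3cr1, Ccr1, Fpr1 and Fpr2 in both), while the fit with no replicate block and the fit to only the groups compared called 0. Leaving out 1 replicate number gave 0 to 3, with 0 without replicate 1 or 2 and 3 without replicate 3. In Tam against Tam Fer1, where 1 was called, DESeq2 and no filter each gave 3, no replicate block 0, and leaving out a number 0 to 3. In ctrl against medium ctrl, leaving out a number gave 0 to 3 (0 without replicate 1 or 2, which leaves medium ctrl with 1 sample assumed to vary like the other groups), and the other settings gave 3. In Tam against medium ctrl, where 1 was called, DESeq2, no filter and only the groups compared gave 2, no replicate block and library totals 0, and leaving out a number 0 to 2. The difference of the Tam effect without and with Fer1 had 0 calls, 1 (Cx3cr1) by DESeq2 and with no filter, and 0 to 1 when leaving out a number. Chosen after seeing the data, the fit without ctrl replicate 3 called 1 in Tam against ctrl, 2 in Tam against Tam Fer1 and 2 in Tam against medium ctrl, and the fit without Tam replicate 3 called 3 in Tam against Tam Fer1. Among the 9 receptors, leaving out the block changed no calls other than those given. Over all genes it took the calls from 143 to 6 in Tam against ctrl, 132 to 18 in Tam against Tam Fer1, 1001 to 457 in ctrl against medium ctrl and 394 to 97 in Tam against medium ctrl. With only the groups compared, 0 of 11857 genes were called in Tam against ctrl and 37 of 11871 in Tam against Tam Fer1. In Tam against medium ctrl that setting called 667 of 12149. Leaving out replicate number 1 or 2 left almost no calls over all genes in Tam against ctrl or Tam against Tam Fer1. Without replicate 3, 191 of 12516 genes were called in Tam against ctrl. Of the other genes named as called by edgeR between ctrl and medium ctrl, S1pr1 and Pik3cg still passed without the block. Ccl2, Ccl5, Ccl7, Ccl8, Grk3, Rgs1, S100a8, Ngp, Col1a1 and Col1a2 did not (edgeR adjusted p from 0.0799 for Rgs1 to 0.7085 for Col1a1). Of all 12851 genes, DESeq2 called 277 in Tam against ctrl, 247 in Tam against Tam Fer1 and 1153 in ctrl against medium ctrl. It called 534 in Tam against medium ctrl and 79 for the difference of the Tam effect, where edgeR called 4. With no filter, edgeR called 259, 230, 1072, 505 and 32 of 22388 genes in the same order. The cause of these changes was not tested.

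Directions that changed belonged to values that passed no test and lay near 0, apart from Ccr2 in Tam against Tam Fer1. There the fitted log2 fold change of Ccr2 was -0.42 ± 0.42 (SE), and the differences within replicates 1, 2 and 3 were -0.49, 0.46 and -1.69. Leaving out a number gave ranges of -0.155 to 0.375 for Cxcr4, -0.426 to 0.00637 for Ccrl2 and -0.212 to 0.168 for C5ar1 in Tam against ctrl, and of -0.251 to 0.00479 for Ccrl2 in Tam against Tam Fer1, where Ccr2 ran from -0.891 without replicate 2 to 0.0676 without Tam replicate 3. In ctrl against medium ctrl, Ccr2 was 0.0258 with no filter, 0.108 with library totals and -0.419 (without ctrl replicate 3) to 0.521 when leaving out samples, and C5ar1 was 0.0101, 0.0932 and -0.177 to 0.0506. In Tam against medium ctrl, Cmklr1 was 0.0121 with no replicate block, 0.0140 with no filter, 0.0772 with library totals and 0.177 with only the groups compared, and ran from -0.166 to 0.191 when leaving out a number. Library totals moved the median of all genes to 0.11 in ctrl against medium ctrl and 0.10 in Tam against medium ctrl. At 1 to 9 CPM, Fpr1 rests on few counts per sample.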
